A study of Mus musculus with 6 samples.

Results

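Cholesterol and fatty acid synthesis genes were followed in spleen CD11b+ cells as a set of 38 named genes. The set was taken by symbol from the sterol synthesis, SREBP, fatty acid synthesis and sterol efflux pathways, out of 43432 genes in the count table. All 38 were matched to a symbol. It was divided into the mevalonate pathway (7 genes), the steps of squalene to cholesterol (11), SREBP regulators (6), fatty acid synthesis (10), and LXR and sterol efflux (4).

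The cells came from Rag1 KO mice of strain C57BL/6J, which lack mature lymphocytes of the T and B lineages, and were sorted on day 8 after transfer. All 6 mice had received unmanipulated 2D2 CD4+ T cells, whose receptor recognises myelin oligodendrocyte glycoprotein (MOG), with B cells grown in the iGB culture and loaded with MOG protein. Mice of the WT iGB6 group (n = 3) were given wild-type B cells transduced with a pMSCV retrovirus that encodes Il6 together with enhanced green fluorescent protein. Mice of the IgHMOG iGBGFP group (n = 3) were given IgHMOG B cells transduced with pMSCV, with no Il6 named and with GFP in the group's name. B cell genotype and vector changed together, so their effects cannot be told apart. Replicate 1 was female and replicates 2 and 3 were male in both groups. No age was given for the mice.

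Cells make cholesterol from acetyl-CoA through mevalonate, farnesyl diphosphate, squalene and lanosterol. When sterol in the endoplasmic reticulum is low, Scap carries the SREBP proteins to the Golgi, where they are cut and released to switch on sterol and fatty acid synthesis genes, and Insig proteins hold this transport back. When oxysterols are plentiful, the liver X receptors (LXR) switch on the sterol exporters Abca1 and Abcg1, which are best known in macrophages.

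Between 5955142 and 7564254 reads were counted per WT iGB6 library and between 5196339 and 6611212 per IgHMOG iGBGFP library. On the first principal component, which held 53.2% of the variance, WT iGB6 replicate 2 (-2.60) and IgHMOG iGBGFP replicate 1 (-3.20) lay between the other WT iGB6 libraries (-48.2 and -35.0) and the other IgHMOG iGBGFP libraries (44.3 and 44.6). Marker genes of neutrophil precursors, 9 of 9 measured, were called higher in WT iGB6, and 8 of 12 genes of dividing cells were too. The defining T and B cell genes Cd3e and Pax5 were at 0 in every WT iGB6 library and averaged 2.25 and 0.67 normalized counts in IgHMOG iGBGFP. Other genes of these lists were present. The 6 T cell markers summed to 92.4 to 231 normalized counts in WT iGB6 and 126 to 208 in IgHMOG iGBGFP. The 5 B cell markers summed to 51.7 to 89.2 in WT iGB6 and 74.7 to 129 in IgHMOG iGBGFP. The 5 genes of the CD11b gate, Itgam among them, took 3.80 to 4.83% of counts in WT iGB6 and 3.29 to 4.26% in IgHMOG iGBGFP. In a bulk sample, fewer cells of a type and less RNA per cell cannot be told apart.

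In WT iGB6, 1 member was higher and 1 lower than in IgHMOG iGBGFP. Fdps, which makes farnesyl diphosphate at the branch point of sterol and isoprenoid synthesis, rose 1.82-fold. Abcg1, which exports cholesterol to lipoproteins, fell to 0.499 times its level in IgHMOG iGBGFP. Of the other members, 33 did not pass the test and 3 (Insig1, Scd1 and Fads2) had a mean normalized count under 10 and were not tested. The test was limma on log2(normalized count + 1) with group and sex as terms, with Benjamini-Hochberg adjustment over 9923 genes and a threshold of 0.05. It called 2.75% of all tested genes higher and 3.37% lower in WT iGB6, so that 1 of 35 members in each direction was near the background. Without WT iGB6 replicate 2 the counts were 3 higher and 3 lower, and without WT iGB6 replicate 1 or any IgHMOG iGBGFP library they were 0 and 0, with 5 to 11 members at an unadjusted p under 0.05 in limma. With all 6 libraries 10 of the 35 members had an unadjusted p under 0.05, beside 24.5% of all tested genes. A gene that missed the threshold is not thereby shown to be equal in the groups.

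The signs of the differences were uneven between branches. Among the 35 tested members, 26 had a positive log2 fold change (WT iGB6 over IgHMOG iGBGFP) and 9 a negative one, with a median of 0.29, beside 0.017 over all tested genes. The 18 sterol synthesis genes had a median of 0.45, and 17 of them were positive, against 51.6% of all tested genes. The median was 0.38 for 8 fatty acid synthesis genes, -0.078 for 5 SREBP regulators and -0.44 for 4 LXR and efflux genes. Without either replicate 1 library the mevalonate pathway median moved from 0.46 to 0.26 and the fatty acid synthesis median from 0.38 to 0.25. Without IgHMOG iGBGFP replicate 2 the median of squalene to cholesterol moved from 0.44 to 0.28, and 15 of 18 sterol synthesis genes were positive. These are counts over members that share cells and libraries, and no test was made of a branch. With reads scaled by library total in place of the deposited size factors, the median of all tested genes shifted to -0.19 and 14 of 18 sterol synthesis genes were positive. Measured from the all-gene median under that scaling, 17 of 18 lay above it.

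**Figure D1:**
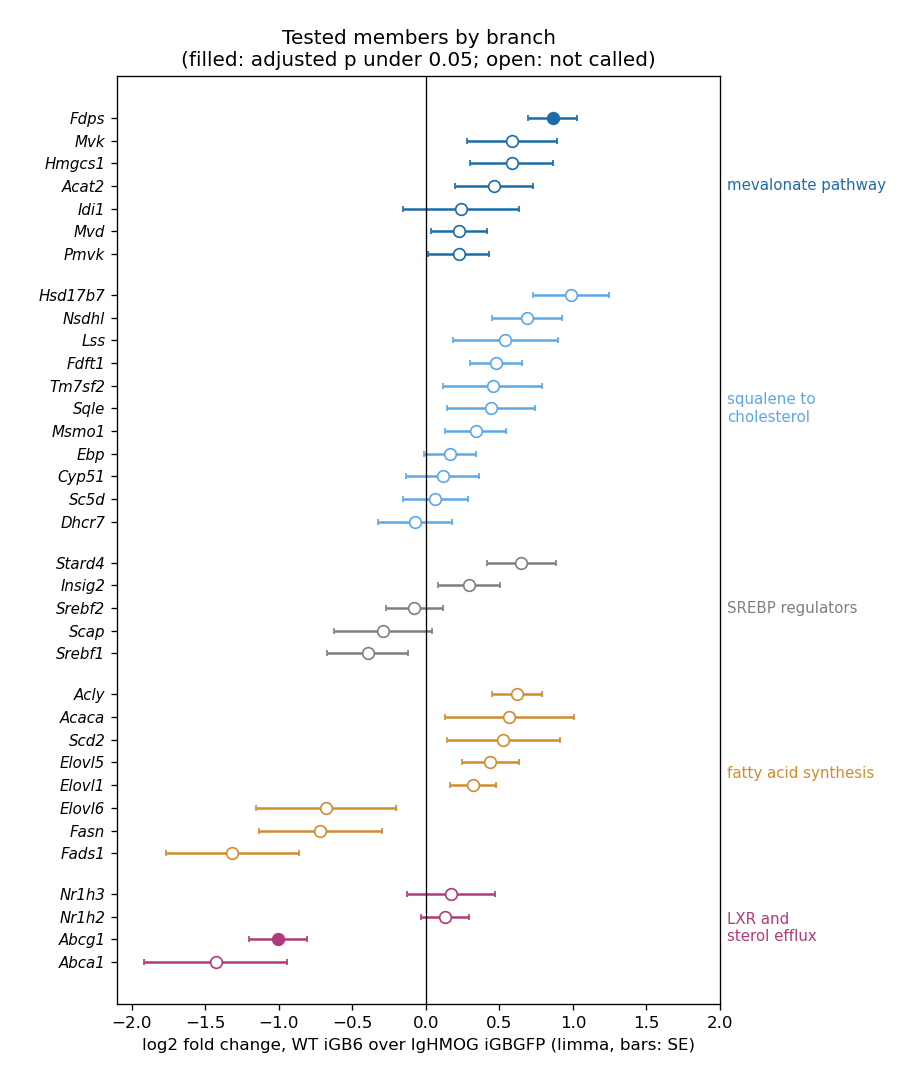
Log2 fold change (x axis, WT iGB6 over IgHMOG iGBGFP, limma) of the 35 tested members, grouped by branch, with bars for the standard error. Filled points had an adjusted p under 0.05. Fdps at 0.86 and Abcg1 at -1.0 are filled, and 17 of 18 sterol synthesis genes lie right of 0 with the deposited size factors.

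The groups did not overlap for 7 members that were higher in every WT iGB6 library, namely Fdps, Mvk, Hsd17b7, Nsdhl, Stard4, Acly and Elovl1. Such a pattern held for 12.2% of all tested genes. It held in the lower direction for 2 members, Fads1 and Abcg1, beside 11.4% of all tested genes. With DESeq2 on the recovered reads, Fdps, Hsd17b7 and Acly were called higher, at a background of 4.25%, and Abcg1 lower, at a background of 5.33%.

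Promoter windows of 30 of the 38 members were found in RefSeq (GRCm38.p6), each running 250 bases before to 50 after a gene's start. Those without an entry were Abcg1, Fads1, Fdft1, Fdps, Scd1, Scd2, Sqle and Stard4. Both strands were searched for the sterol regulatory element TCACNCCAC to which SREBP binds, the CCAAT box of NF-Y, the GC box GGGCGG of Sp1, and an element for LXR, the repeat unit AGGTCA repeated after a gap of 4 free bases. The windows of 4 genes are shown, to set a window with an exact match to TCACNCCAC beside windows without such a match. Hmgcs1 was the only member whose window held it. Hsd17b7 and Acly were the members of their branches with the smallest p, and Abca1 is an exporter. Capitals mark the motif matches, none of which overlaps another, with ATTGG and CCGCCC as matches on the opposite strand.
Hmgcs1 (chr13:119690101-119690400, plus strand): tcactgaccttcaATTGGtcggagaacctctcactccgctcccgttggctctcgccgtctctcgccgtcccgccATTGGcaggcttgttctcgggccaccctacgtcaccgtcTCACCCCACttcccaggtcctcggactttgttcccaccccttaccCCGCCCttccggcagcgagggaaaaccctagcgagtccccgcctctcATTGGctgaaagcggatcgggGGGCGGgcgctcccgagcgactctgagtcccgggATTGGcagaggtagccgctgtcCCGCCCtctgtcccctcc
Hsd17b7 (chr1:169969156-169969455, minus strand): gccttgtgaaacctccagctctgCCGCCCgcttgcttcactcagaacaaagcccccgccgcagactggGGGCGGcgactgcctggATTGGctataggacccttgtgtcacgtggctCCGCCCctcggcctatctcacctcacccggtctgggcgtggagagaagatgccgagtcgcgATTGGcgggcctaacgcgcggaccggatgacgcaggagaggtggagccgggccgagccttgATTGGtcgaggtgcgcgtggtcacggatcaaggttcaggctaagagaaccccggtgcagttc
Acly (chr11:100527951-100528250, minus strand): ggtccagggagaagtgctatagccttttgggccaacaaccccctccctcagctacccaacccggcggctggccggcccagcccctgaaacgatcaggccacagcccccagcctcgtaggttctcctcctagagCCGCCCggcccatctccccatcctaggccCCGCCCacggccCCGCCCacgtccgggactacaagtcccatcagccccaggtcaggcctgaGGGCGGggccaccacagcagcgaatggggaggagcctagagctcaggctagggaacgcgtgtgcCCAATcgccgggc
Abca1 (chr4:53159846-53160145, minus strand): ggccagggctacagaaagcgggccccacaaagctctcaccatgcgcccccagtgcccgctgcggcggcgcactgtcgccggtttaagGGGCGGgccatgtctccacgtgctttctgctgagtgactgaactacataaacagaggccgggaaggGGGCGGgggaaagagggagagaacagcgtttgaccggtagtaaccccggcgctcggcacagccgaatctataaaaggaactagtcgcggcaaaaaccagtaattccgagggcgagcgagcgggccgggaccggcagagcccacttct

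The Hmgcs1 window held the sterol regulatory element 137 bases before the start, with 4 CCAAT boxes and 3 GC boxes around it. The Hsd17b7 window had 3 CCAAT and 3 GC boxes, and the Acly window 1 CCAAT and 4 GC boxes. The Abca1 window had 2 GC boxes and no exact match to the other motifs searched. Across the 15 sterol synthesis genes with a window, 14 held a CCAAT box, beside 43.4% of the 7774 tested genes with a window and 41.1% of all 27025 genes in the promoter table. A GC box was present in 14 of these 15, beside 68.3% of tested genes with a window and 38.2% of all. TCACNCCAC was found in 1 of the 15, beside 1.31% of tested genes and 1.44% of all. Outside sterol synthesis, 8 of 15 members with a window had a CCAAT box, among them none of the 3 LXR and efflux genes. The spaced LXR element was in no member's window, in 0 of the 7774 tested genes with a window and in 4 of all 27025 genes. Only exact letters were searched, so a variant of an element would be missed. The lack of a match here does not show that a window has no LXR or sterol regulatory element. A match describes these letters in this window and shows no binding.

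The 7 mevalonate pathway genes all had positive log2 fold changes, with 1 called. Fdps (GRCm38 chromosome 3, 89093588 to 89101959) had 527.6, 416.0 and 382.4 normalized counts in WT iGB6 replicates 1, 2 and 3, and 283.3, 221.6 and 220.9 in the IgHMOG iGBGFP replicates of the same order. All 3 WT iGB6 libraries were above all 3 IgHMOG iGBGFP libraries. The means were 442 ± 76.0 in WT iGB6 and 242 ± 35.8 in IgHMOG iGBGFP (SD, n = 3 each). The log2 fold change was 0.86 (SE 0.17), with a limma adjusted p of 0.022, an edgeR adjusted p of 0.0237 and a DESeq2 adjusted p of 0.00359. The authors' deposited table gives Fdps a log2 fold change of 0.82 and an adjusted p of 0.00267.

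The call for Fdps was lost without WT iGB6 replicate 1 (limma adjusted p = 0.109) and without IgHMOG iGBGFP replicate 1 (0.107), 2 (0.114) or 3 (0.100), at log2 fold changes of 0.85 to 0.87. The fits without either replicate 1 library are the same comparison, that of the males. With library-total scaling Fdps was at 0.66 with a limma adjusted p of 0.0906. Of its annotated exon bases, 26.7% are shared with ENSMUSG00000105204, whose reads were not analysed here, and the labels do not describe the kit as keeping strand.

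**Figure D2:**
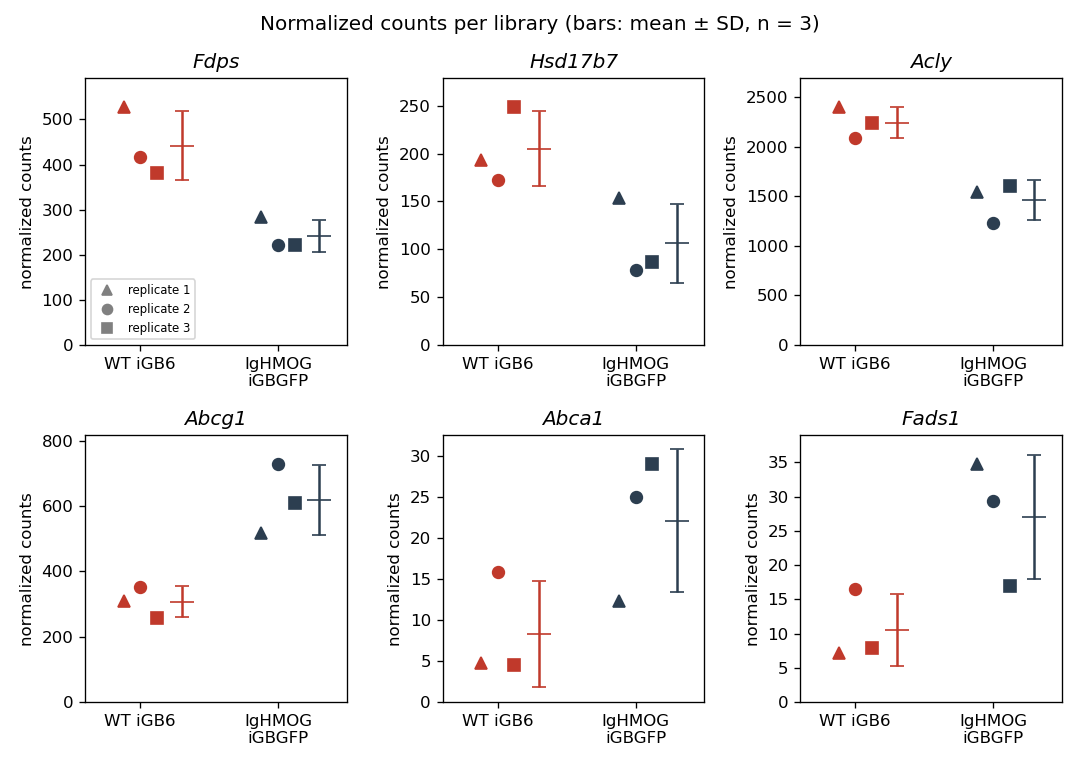
Normalized counts (y axis, from 0) of Fdps, Hsd17b7, Acly, Abcg1, Abca1 and Fads1 in each WT iGB6 and IgHMOG iGBGFP library, with a mark shape per replicate and bars for mean ± SD (n = 3). The groups do not overlap except for Abca1, where WT iGB6 replicate 2 at 15.8 lies above IgHMOG iGBGFP replicate 1 at 12.3.

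Hmgcs1, the synthase that forms HMG-CoA, was the most abundant mevalonate pathway gene by mean count. It had 534.8, 438.9 and 545.5 normalized counts in WT iGB6, against 410.2, 200.1 and 462.8 in IgHMOG iGBGFP. The groups overlapped, because IgHMOG iGBGFP replicate 3 lay above WT iGB6 replicate 2, and IgHMOG iGBGFP replicate 2 was the low library. The log2 fold change of Hmgcs1 was 0.58 (SE 0.28; limma adjusted p = 0.233). Mvk, the mevalonate kinase, had 32.0, 52.1 and 39.4 in WT iGB6, against 29.7, 24.1 and 26.0 in IgHMOG iGBGFP. Its groups did not overlap, and its log2 fold change of 0.59 (SE 0.31) had a limma adjusted p of 0.271. Acat2, the thiolase of the opening step, was at 0.46, and Idi1, Mvd and Pmvk, which convert mevalonate to the activated isoprene units, were at 0.22 to 0.24, none of them called.

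The 11 genes of squalene to cholesterol included 10 with a positive log2 fold change and none called by limma. An unadjusted p under 0.05 was found for 3 of the 11, near the 24.5% of all tested genes. Hsd17b7, a sterol ketoreductase of the steps that strip methyl groups from lanosterol, came nearest to the threshold. It had 193.3, 172.9 and 248.6 normalized counts in WT iGB6, against 153.4, 78.5 and 87.0 in IgHMOG iGBGFP. The groups did not overlap, and the female IgHMOG iGBGFP library was the highest of its group. Its log2 fold change was 0.99 (SE 0.26), with a limma adjusted p of 0.0517 and a DESeq2 adjusted p of 0.0173. In the authors' deposited table its log2 fold change was 0.89, with an adjusted p of 0.0194.

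Nsdhl, the dehydrogenase of the same demethylation steps, had 199, 165 and 283 normalized counts in WT iGB6, against 147, 117 and 128 in IgHMOG iGBGFP. WT iGB6 and IgHMOG iGBGFP did not overlap, and the log2 fold change of Nsdhl was 0.69 (SE 0.24; limma adjusted p = 0.113). Msmo1, the oxygenase of those steps, was at 0.34 (SE 0.21; limma adjusted p = 0.353). Cyp51, which takes a methyl group off lanosterol before these steps, was at 0.11 (SE 0.25; limma adjusted p = 0.818).

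Fdft1, squalene synthase and the entry to the sterol branch, was at 0.47 (SE 0.18; limma adjusted p = 0.135), with 18.3% of its exon bases shared with Ctsb. Ctsb reached 19663 reads in a library, and the treatment of shared bases was a point not given in the sources used here. Squalene epoxidase Sqle (0.44), lanosterol synthase Lss (0.54) and the sterol reductase Tm7sf2 (0.45) were also positive and not called, with overlapping groups. Sc5d, a desaturase late in the pathway, was the most abundant of the branch by mean count, at 713, 876 and 558 normalized counts in WT iGB6 and 499, 827 and 737 in IgHMOG iGBGFP. Its libraries were intermixed, with a log2 fold change of 0.065 (SE 0.22; limma adjusted p = 0.887). Ebp, a sterol isomerase, was at 0.17 (SE 0.18), and Dhcr7, which completes cholesterol, at -0.072 (SE 0.25). With library-total scaling Cyp51, Ebp and Sc5d became negative.

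**Figure D3:**
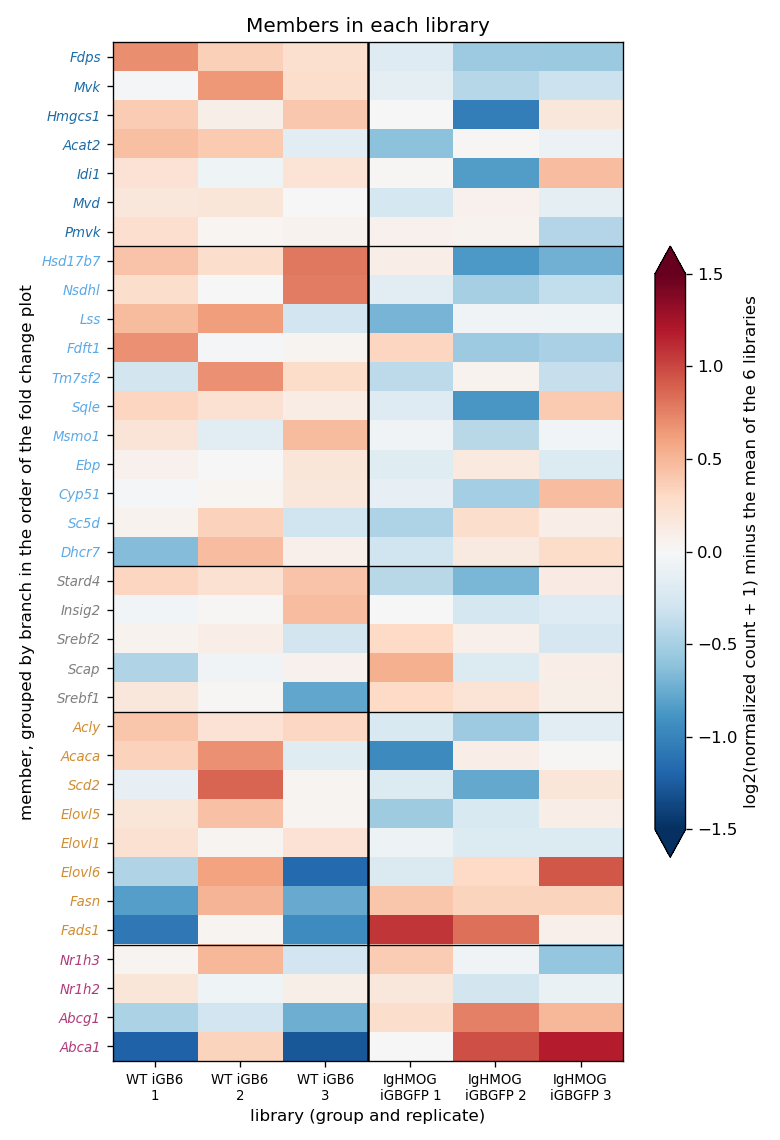
Each tested member (y axis, by branch) in each library (x axis), coloured by log2(normalized count + 1) minus the gene's mean over the 6 libraries, with red above and blue below that mean. Abcg1 and Fads1 are lower in all WT iGB6 libraries, and IgHMOG iGBGFP replicate 2 is the lowest library for Hmgcs1, Hsd17b7 and Sqle.

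Summed over the 18 sterol synthesis genes, WT iGB6 libraries held 4621, 4304 and 4443 normalized counts, against 3471, 3299 and 3697 in IgHMOG iGBGFP. The groups did not overlap on this scale. As a share of each library's normalized counts the sums were 0.0654, 0.0721 and 0.0618% in WT iGB6 and 0.0523, 0.0579 and 0.0712% in IgHMOG iGBGFP, and these overlapped. A list of 11 neutrophil genes, with Cxcr2 and Csf3r and also the granule genes Ltf, Camp and Ngp, alone took 19.3 to 26.8% of the counts in WT iGB6 libraries. In IgHMOG iGBGFP libraries it took 11.8 to 24.0%. Of these 11 genes, 8 had a positive and 3 a negative log2 fold change, with 1 called lower and 0 higher by limma. Beside the sterol genes, the 9 neutrophil precursor markers summed to 22973 to 37299 in WT iGB6 and 5771 to 13317 in IgHMOG iGBGFP. The 12 dividing cell markers summed to 5302 to 10137 in WT iGB6 and 2993 to 4305 in IgHMOG iGBGFP. Their part in the sterol gene values was not tested.

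**Figure D4:**
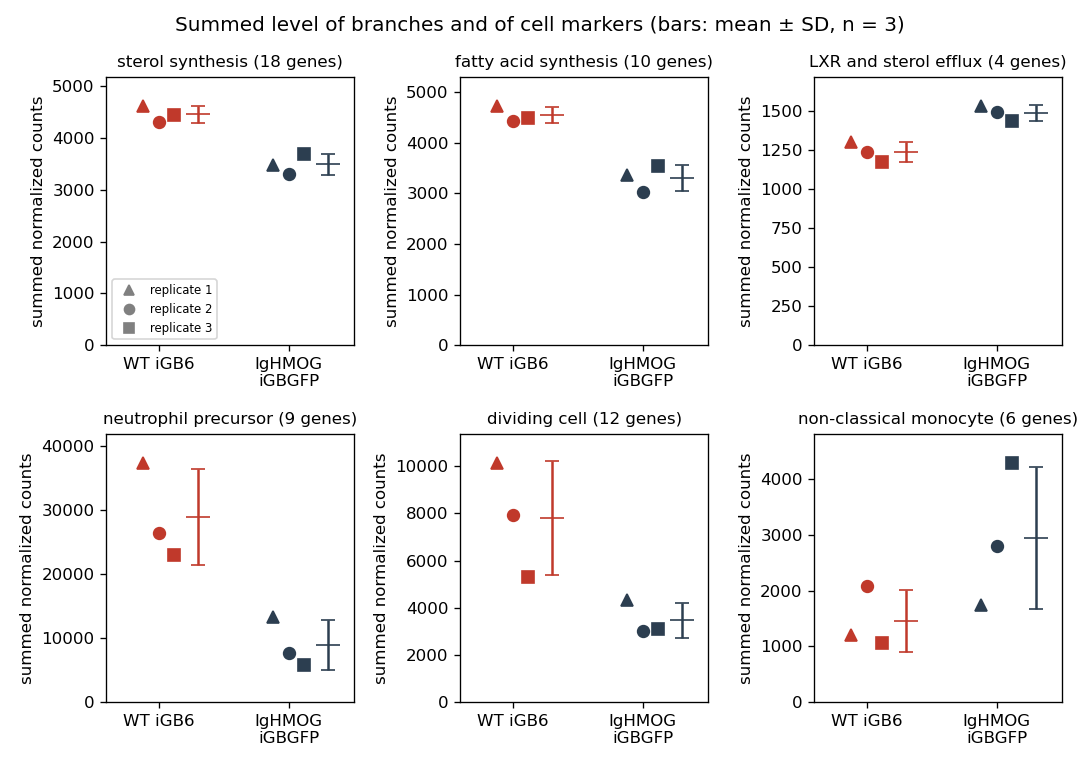
Summed normalized counts per library (y axes, from 0) of sterol synthesis, fatty acid synthesis and LXR and efflux genes, above those of neutrophil precursor, dividing cell and non-classical monocyte markers, with WT iGB6 left of IgHMOG iGBGFP and bars for mean ± SD (n = 3). Sterol synthesis sums of 4304 to 4621 in WT iGB6 lie above the 3299 to 3697 of IgHMOG iGBGFP, and the monocyte sums overlap.

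The SREBP regulators included no called gene, and 1 of the 5 tested, Stard4, had an unadjusted p under 0.05 in limma, beside 24.5% of all tested genes. Stard4, which carries cholesterol between membranes, had 244, 229 and 264 normalized counts in WT iGB6, against 146, 122 and 214 in IgHMOG iGBGFP. All WT iGB6 libraries lay above all IgHMOG iGBGFP libraries, with replicate 3 the highest of each group. The log2 fold change of Stard4 was 0.65 (SE 0.23; limma adjusted p = 0.124).

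The genes of the SREBP transcription factors had negative log2 fold changes, neither of them called. Srebf2, which drives sterol synthesis, was the most abundant of the branch by mean count, at 286, 295 and 227 normalized counts in WT iGB6 and 338, 291 and 230 in IgHMOG iGBGFP. Its values were intermixed (log2 fold change -0.078, SE 0.20; limma adjusted p = 0.842). Srebf1, whose liver form drives fatty acid synthesis, had 79.4, 71.0 and 40.5 in WT iGB6 and 86.9, 81.1 and 75.0 in IgHMOG iGBGFP. The groups overlapped through WT iGB6 replicate 1, and the value of Srebf1 was -0.40 (SE 0.27; limma adjusted p = 0.406).

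Of the Insig proteins, Insig2 had 193, 200 and 273 normalized counts in WT iGB6 and 199, 166 and 174 in IgHMOG iGBGFP, a log2 fold change of 0.29 (SE 0.21; limma adjusted p = 0.426). Insig1, itself a target of SREBP, was below the filter, at 7.11, 6.31 and 3.37 in WT iGB6 and 13.3, 14.7 and 5.0 in IgHMOG iGBGFP. The groups of both genes overlapped. Scap, the escort of SREBP, had a log2 fold change of -0.29 (SE 0.34; limma adjusted p = 0.637). SREBP activity is set mainly by cleavage of the proteins, which transcript levels do not measure.

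Fatty acid synthesis had 5 of 8 tested genes positive and none called by limma. An unadjusted p under 0.05 was found for 3 of the 8, beside 24.5% of all tested genes. Acly, which splits citrate to supply cytosolic acetyl-CoA to both pathways, had 2399.9, 2087.1 and 2236.1 normalized counts in WT iGB6, against 1544.6, 1235.0 and 1607.4 in IgHMOG iGBGFP. The lowest WT iGB6 library lay above the highest IgHMOG iGBGFP library. The log2 fold change of Acly was 0.62 (SE 0.17), with a limma adjusted p of 0.0579, an edgeR adjusted p of 0.0798 and a DESeq2 adjusted p of 0.043. The authors' deposited table calls Acly, at a log2 fold change of 0.58 and an adjusted p of 0.0303. With library-total scaling Acly was at 0.41 (limma adjusted p = 0.236).

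The elongases Elovl1 (0.32, SE 0.16) and Elovl5 (0.44, SE 0.19), which lengthen long-chain and polyunsaturated fatty acids, were abundant and positive on the log2 scale, with limma adjusted p of 0.241 and 0.193. Acaca and Fasn, the carboxylase and the synthase of the core pathway, were low. The transcript of Acaca is 99.2% identical to that of Gm5182 over 6118 bases. Gm5182 was not among the counted genes, and the treatment of reads matching both was a point not given in the sources used here. Fasn had 10.7, 28.4 and 11.2 normalized counts in WT iGB6 and 26.6, 25.0 and 25.0 in IgHMOG iGBGFP, where WT iGB6 replicate 2 was above the whole IgHMOG iGBGFP group. Its log2 fold change was -0.72 (SE 0.42; limma adjusted p = 0.325), while Acaca was at 0.57 (SE 0.44) and the elongase Elovl6 at -0.68 (SE 0.48), neither called.

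The desaturases were low in every library. Fads1, an enzyme of polyunsaturated fatty acid synthesis, had 7.11, 16.6 and 7.87 normalized counts in WT iGB6, against 34.8, 29.3 and 17.0 in IgHMOG iGBGFP. The groups did not overlap but came within 1 normalized count of each other, at WT iGB6 replicate 2 and IgHMOG iGBGFP replicate 3. Its log2 fold change of -1.32 (SE 0.45) had a limma adjusted p of 0.111. Fads1 was called without WT iGB6 replicate 2 (-1.72, limma adjusted p = 0.0259), and came to -0.90 without WT iGB6 or IgHMOG iGBGFP replicate 1 (limma adjusted p of 0.403 and 0.442). The authors' deposited table gives it -0.88 (adjusted p = 0.201), nearer 0 than the -1.34 of DESeq2 on the recovered reads (adjusted p = 0.144). Why the estimates of this low gene differ was not tested. The neighbouring Fads2 was below the filter, at 10.7, 3.16 and 6.75 in WT iGB6 and 10.2, 6.90 and 7.0 in IgHMOG iGBGFP.

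Of the stearoyl-CoA desaturases, which make monounsaturated fatty acids, Scd2 had the higher mean level per kb of exon, 5.29 normalized counts beside 0.299 for Scd1. Scd2 had 24.9, 50.5 and 28.1 normalized counts in WT iGB6 and 23.5, 15.5 and 31.0 in IgHMOG iGBGFP. The groups of Scd2 overlapped (log2 fold change 0.53, SE 0.39; limma adjusted p = 0.436). Scd1 was at 0, 3.16 and 0 in WT iGB6 and 2.0, 2.6 and 1.0 in IgHMOG iGBGFP, where a count of 0 allows up to 3.56 and 3.37 normalized counts in the WT iGB6 libraries concerned. The transcripts of Scd2 and Scd1 are 95.5% identical over 623 bases, so reads there can be split between them.

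**Figure D5:**
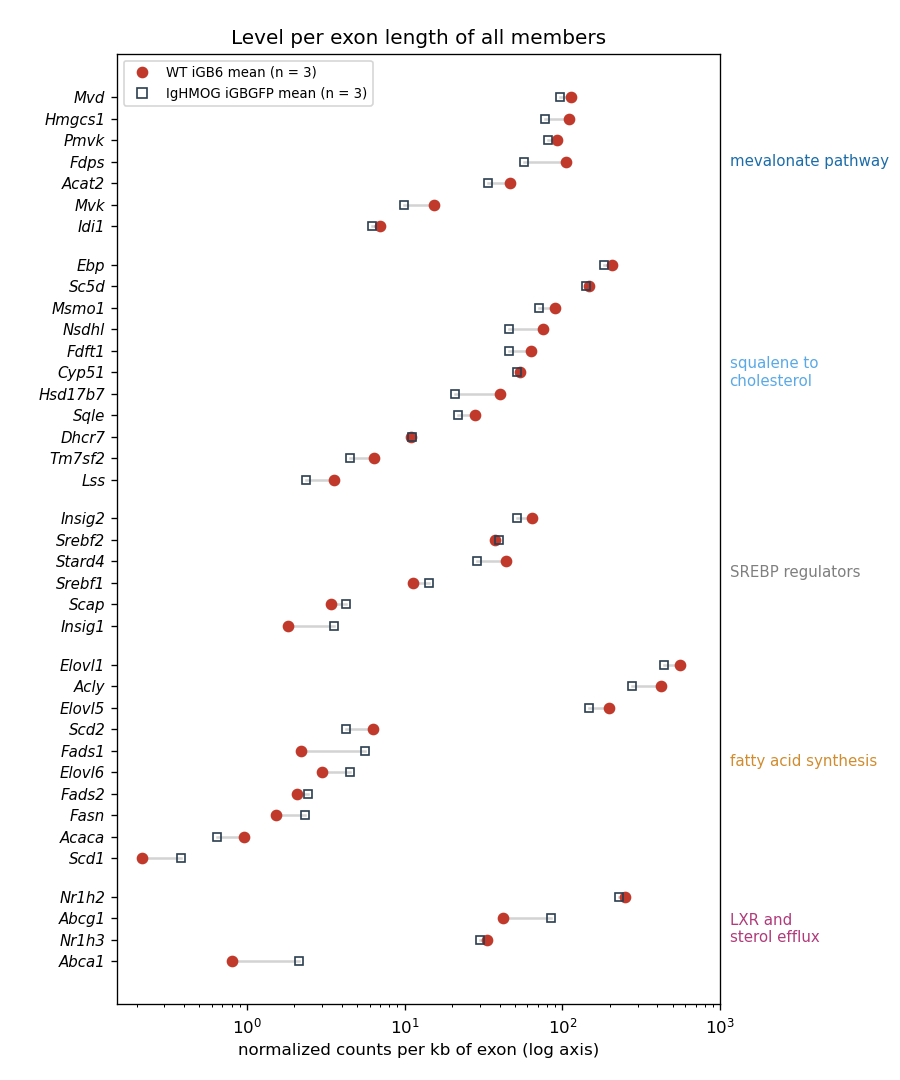
Mean normalized counts per kb of exon (x axis, log scale) of all 38 members in WT iGB6 (filled) and IgHMOG iGBGFP (open), n = 3 each, by branch. Elovl1 and Acly are highest, Scd1 is lowest, and Fasn and Acaca lie below most sterol synthesis genes.

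Per kb of exon, Elovl1 had the highest mean level of the 38 members over the 6 libraries, at 498 normalized counts per kb, followed by Acly at 351, Nr1h2 at 239 and Ebp at 195. Elovl5 (173) and Sc5d (144) came next. Core fatty acid synthesis was low on the same scale, with Fasn at 1.93 and Acaca at 0.801, and Scd1 was lowest at 0.299. The Acaca level carries the limit given above for Gm5182. Acly stood at 425 per kb in WT iGB6 and 277 in IgHMOG iGBGFP, and Elovl1 at 554 in WT iGB6 and 443 in IgHMOG iGBGFP.

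Among the LXR and efflux genes, the exporters had negative log2 fold changes, of which limma called Abcg1 lower in WT iGB6, and the receptors had values near 0. Abcg1 (GRCm38 chromosome 17, 31057675 to 31117988) had 309.5, 353.6 and 258.7 normalized counts in WT iGB6, against 517.6, 728.8 and 608.8 in IgHMOG iGBGFP. All WT iGB6 libraries lay below all IgHMOG iGBGFP libraries. The means were 307 ± 47.5 in WT iGB6 and 618 ± 106 in IgHMOG iGBGFP (SD, n = 3 each). The log2 fold change was -1.0 (SE 0.20), with a limma adjusted p of 0.022, an edgeR adjusted p of 0.0208 and a DESeq2 adjusted p of 0.000852. The authors' deposited table gives Abcg1 a log2 fold change of -0.93 and an adjusted p of 9.93e-04.

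With library-total scaling Abcg1 was at -1.21 and still called (limma adjusted p = 0.0354). The call was lost without WT iGB6 replicate 1 (limma adjusted p = 0.0624) and without IgHMOG iGBGFP replicate 1 (0.0606), 2 (0.152) or 3 (0.105), at log2 fold changes between -1.14 and -0.89. Here too the fits without either replicate 1 library are the same comparison of the males.

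Abca1, the exporter that loads lipid-poor apolipoprotein, was low, at 4.74, 15.8 and 4.50 normalized counts in WT iGB6 and 12.3, 25.0 and 29.0 in IgHMOG iGBGFP. The groups overlapped, with WT iGB6 replicate 2 above IgHMOG iGBGFP replicate 1. Its log2 fold change was -1.43 (SE 0.49; limma adjusted p = 0.107). Abca1 was called without WT iGB6 replicate 2 (-1.86, limma adjusted p = 0.0277), and came to -0.94 without WT iGB6 replicate 3 (limma adjusted p = 0.234). The authors' deposited table gives it -0.85 (adjusted p = 0.234), nearer 0 than the -1.39 of DESeq2 on the recovered reads (adjusted p = 0.171). Why the estimates of this low gene differ was not tested.

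The receptor genes had values close to 0. Nr1h2, which encodes LXR beta, had 906, 760 and 845 normalized counts in WT iGB6 and 900, 661 and 744 in IgHMOG iGBGFP (log2 fold change 0.13, SE 0.16; limma adjusted p = 0.665). Nr1h3, which encodes LXR alpha, had 79.4, 109 and 63.0 in WT iGB6 and 100, 74.2 and 51.0 in IgHMOG iGBGFP (0.17, SE 0.30; limma adjusted p = 0.765). The groups of both overlapped, and with library-total scaling both values turned negative.

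The 4 genes of the branch summed to 1300, 1239 and 1171 normalized counts in WT iGB6 and 1530, 1489 and 1432 in IgHMOG iGBGFP, with no overlap. As shares of the library they took 0.0163 to 0.0207% in WT iGB6 and 0.0230 to 0.0276% in IgHMOG iGBGFP. Within the branch, only Abcg1 had groups that did not overlap, with means of 307 in WT iGB6 and 618 in IgHMOG iGBGFP. In the same order the means were 8.34 and 22.1 for Abca1, 837 and 768 for Nr1h2, and 83.8 and 75.1 for Nr1h3. The lower sum in WT iGB6 therefore describes mainly Abcg1. Markers of other cell types moved beside Abcg1. The 6 non-classical monocyte markers, 4 of them called lower, summed to 1060 to 2085 in WT iGB6 and 1747 to 4296 in IgHMOG iGBGFP. The 8 dendritic cell markers, of which 2 of 5 tested were lower, summed to 36.8 to 150 in WT iGB6 and 286 to 1119 in IgHMOG iGBGFP. The 7 basophil and mast cell markers, 5 of them lower, summed to 464 to 1691 in WT iGB6 and 1838 to 7470 in IgHMOG iGBGFP. Their part in the Abcg1 difference was not tested.

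Within a library, the ratio of Fdps to Abcg1 reads does not depend on the size factor. It was 1.70, 1.18 and 1.48 in WT iGB6 and 0.547, 0.304 and 0.363 in IgHMOG iGBGFP. The ratio lay above 1 in all 3 WT iGB6 libraries and below 1 in all 3 IgHMOG iGBGFP libraries. Both genes were picked here for being called, so the ratio is a description.

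The group difference had the same sign in both sexes for the called genes. For Fdps it was 0.89 on the log2 scale in the females (1 library per group) and 0.85 in the males (2 per group), and for Abcg1 -0.74 in the females and -1.14 in the males. Hsd17b7 had 0.33 in the females and 1.32 in the males. In limma, the interaction of sex and group was called for 0 of 9923 genes, with 148 at an unadjusted p under 0.05 and no member among them. With 1 female per group this test has little power, and sex coincides with replicate number 1.

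Among other genes of sterol and fatty acid handling, 64 in 6 lists, Acsl1 was higher in WT iGB6 and Lpl, Arl4c and Npc2 were lower. Of 58 tested, limma called 1 higher and 3 lower, near the 2.75% and 3.37% of all tested genes. The calls were uneven between lists. Among the 6 listed LXR targets, 2 were called lower. An unadjusted p under 0.05 in limma was found for 4 of these 6, the positive Lpcat3 among them, beside 24.5% of all tested genes. Lpl, the lipoprotein lipase and an LXR target, had 36.8, 111 and 57.4 normalized counts in WT iGB6, against 184, 292 and 288 in IgHMOG iGBGFP. The groups did not overlap, and Lpl had a log2 fold change of -2.0 (SE 0.27; limma adjusted p = 0.00716). Arl4c, a small GTPase reported as an LXR target in macrophages, had 10.7, 79.7 and 27.0 in WT iGB6, against 76.7, 180 and 161 in IgHMOG iGBGFP. Its groups overlapped at WT iGB6 replicate 2 and IgHMOG iGBGFP replicate 1 (-2.14, SE 0.38; limma adjusted p = 0.0174).

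The other 4 LXR targets were not called, namely Mylip (-0.79), Pltp (-0.62), Smpdl3a (0.071) and Lpcat3 (0.53), so the list did not move one way. Npc2, which hands cholesterol out of the lysosome, was the 1 lower gene among 6 tested of sterol storage and lysosomal handling. It had 2317, 3319 and 2490 normalized counts in WT iGB6, against 3477, 5636 and 5887 in IgHMOG iGBGFP. The groups did not overlap (log2 fold change -0.86, SE 0.19; limma adjusted p = 0.0318). Lpl and Npc2 are known to be expressed by macrophages, and the 8 red pulp macrophage markers, 1 of them called higher, summed to 5774 to 12279 in WT iGB6 and 8226 to 10303 in IgHMOG iGBGFP. The 6 classical monocyte markers, 3 of them called lower, summed to 12337 to 20223 in WT iGB6 and 15950 to 32585 in IgHMOG iGBGFP. The non-classical monocyte and dendritic cell markers given beside Abcg1 were also lower in 4 of 6 and 2 of 5 tested genes. Their part in the values of Lpl, Arl4c and Npc2 was not tested. The call of Lpl was lost without IgHMOG iGBGFP replicate 2 or 3 (limma adjusted p of 0.0938 and 0.0802). Those of Arl4c and Npc2 were lost without WT iGB6 replicate 1 or any IgHMOG iGBGFP library (limma adjusted p of 0.0669 to 0.178).

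Acsl1, which activates long-chain fatty acids with coenzyme A, was the 1 higher gene among 13 tested of further fatty acid synthesis and activation. It had 2446, 1572 and 2580 normalized counts in WT iGB6, against 1772, 810 and 1024 in IgHMOG iGBGFP. The groups overlapped at WT iGB6 replicate 2 and IgHMOG iGBGFP replicate 1. Its log2 fold change was 0.92 (SE 0.23), with a limma adjusted p of 0.0467 and an edgeR adjusted p of 0.0545, and the limma call was lost when any library other than WT iGB6 replicate 2 was left out.

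The remaining lists had no gene called by limma. Among 10 further sterol regulators, the LXR partner Rxra had the smallest p, at -1.16 (SE 0.32; limma adjusted p = 0.0601), and DESeq2 called it (adjusted p = 0.0424). Among 12 genes of fatty acid oxidation, Cpt1a, which admits fatty acids to the mitochondrion, was at -0.68 (SE 0.19; limma adjusted p = 0.0624), and DESeq2 called it as well (adjusted p = 0.0376). Of these lists, 2 of 10 sterol regulators and 3 of 12 oxidation genes had an unadjusted p under 0.05, near the 24.5% of all tested genes. The 11 genes of the isoprenoid branch, which take the product of Fdps away from sterols, had a median log2 fold change close to 0 and 0 genes with an unadjusted p under 0.05. Fnta, the farnesyltransferase alpha subunit, had the smallest p there, at -0.90 (SE 0.41; limma adjusted p = 0.212).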

How the data were processed

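CD11b+ spleen cells of 6 mice (3 per group) were sequenced in bulk. From 8 to 16 ng of RNA was amplified for 17 cycles as cDNA and 9 as library, without molecular identifiers. The floor given for a count of 0 covers counting error only, while the SD and limma SE values come from the spread between libraries. Per the submitters' processing notes, the tools included STAR 2.7.10b, cutadapt 4.4, featureCounts 2.0.3, FastQC 0.74 and DESeq2 2.11.40.7, with GRCm38. The strand setting and annotation were points not given in the sources used here. As deposited, the signal is the normalized count of each Ensembl gene, which the authors obtained by dividing whole reads by 1 size factor for each library: 100% of values came back whole within 0.001. Library totals ran from 5196339 to 7564254 reads. A second file deposited by the authors gives each gene's mean normalized count, log2 fold change, standard error, Wald score and p-value, raw and adjusted, without a header, so the order was read from the values.

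Symbols, coordinates and exon lengths came from GENCODE M21 (GRCm38). Groups were compared with limma 3.58.1 (R 4.3.3, variance trend, two-sided) in a model of group and sex, fitted to log2(normalized count + 1). Genes averaging under 10 were left out, leaving 9923, and Benjamini-Hochberg adjusted p under 0.05 was called. The pseudocount of 1 understates changes of low genes. On recovered reads, edgeR 4.0.16 and DESeq2 1.42.0 were alternatives and called 606 and 951 genes, beside 607 for limma. Fits were tested on simulated data. Overlaps of exons and copies (BLAST 2.17.0, at least 95% over 300 bases) were checked: 7 members had a near-identical copy and 13 shared exon bases with another gene. Members, lists and tests were chosen with earlier results of these data known. Members called, those with the smallest p or highest mean in each branch, and paralog pairs are given in full; Hmgcs1, Mvk, Nsdhl, Fasn and Abca1 were added after their values were seen. Each library is a different mouse; whether mice shared a litter, cage or day is not given.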

Additional observations from a re-analysis of the deposited data

How the results depend on the processing

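Of the 35 tested members, 26 kept their sign under all alternatives run and 9 turned in at least 1. Fdps and Abcg1 kept their direction in all 20, and kept their call in 12 and 13. Both calls were lost with males alone, without the sex term and without the variance trend. Of the 20, males alone and the fits without either replicate 1 library are the same comparison of males, so not all are distinct. The number of genes called higher and lower was 422 and 529 with DESeq2, 731 and 712 with library weights, 62 and 72 with males alone, 459 and 620 without the filter, 6 and 4 without a sex term, and 28 and 51 without the variance trend. The authors' deposited table calls 410 higher. Library-total scaling, added after seeing the data, called 82 higher and 352 lower, so 18.9% of calls were higher, beside 45.0%. Members called higher numbered 3 with DESeq2 and in the authors' table, 5 with library weights, 2 without the filter, and 0 with males alone, without a sex term, without a variance trend and with library-total scaling. Members called lower numbered 0 with males alone, without a sex term and without a variance trend, where 6, 8 and 10 members had an unadjusted p under 0.05 in limma. Other pathway genes called higher numbered 2 with library weights and 0 with edgeR, a mean of at least 50, males alone, no sex term, no variance trend and library-total scaling. Those called lower numbered 5 with DESeq2, 6 with library weights, 5 without the filter, 1 with males alone and without a variance trend, and 0 without a sex term. The causes were not tested.

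Leaving out each library in turn gave between 3 and 410 genes higher and between 1 and 673 lower, between 0 and 3 members higher and between 0 and 3 lower, and between 0 and 2 other pathway genes higher and between 0 and 5 lower. Leaving out a female leaves the other female to the sex term, which gives the values of males alone. Without WT iGB6 replicate 2, the members called were Fdps, Nsdhl and Hsd17b7 higher and Fads1, Abca1 and Abcg1 lower. In these fits log2 fold changes lay between -0.13 and 0.60 for Idi1, -0.16 and 0.39 for Cyp51, -0.16 and 0.31 for Sc5d, -0.22 and 0.067 for Dhcr7, -0.21 and 0.0064 for Srebf2, -0.48 and 0.056 for Scap, and -0.12 and 0.42 for Nr1h3, and the median of SREBP regulators lay between -0.21 and 0.056. With males alone Sc5d was at -0.16, Dhcr7 at 0.067, Srebf2 at 0.0028, Scap at 0.056 and the SREBP median at 0.056. With a mean of at least 50 the SREBP median was 0.11 and the LXR and efflux median 0.13, since low genes leave the branches. With library-total scaling Cyp51 was at -0.093, Ebp -0.042, Sc5d -0.14, Nr1h2 -0.077 and Nr1h3 -0.033.

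The replicate numbers were tried as a block. Deviations of same-numbered libraries correlated across genes at 0.48, 0.35 and 0.041 for numbers 1, 2 and 3. For WT iGB6 replicates 1 and 2 the same-numbered library was the best match. WT iGB6 replicate 3 correlated better with IgHMOG iGBGFP replicate 1 (0.085). The mouse numbers in the labels lie close together within a replicate number, but the labels name no pairs. The main fit did not take the numbers as pairs, and these correlations do not settle whether they are. The fit with the replicate block called 435 genes higher and 566 lower, 3 members higher (Fdps, Hsd17b7 and Acly), 1 lower (Abcg1), and 5 other pathway genes lower. Depth limits Scd1, Insig1 and Fads2, which had at most 17 reads in a library.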
